A study of Rattus norvegicus with 6 samples.

Results

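miR-223 and miR-142 are miRNAs of blood-derived cells, and both arms of each hairpin were followed here in rat lung after ischemia reperfusion (IR). The members were the rows of the deposited table whose name is rno- followed by miR-223 or miR-142, which gave 4 of the 693 listed miRNAs. They were rno-miR-223-3p, rno-miR-223-5p, rno-miR-142-3p and rno-miR-142-5p. Small RNA was sequenced from the lungs of 3 Sprague-Dawley rats in the IR group and 3 in the sham group, with 1 library per sample. The study used male rats of 7 to 8 weeks. In the IR group the left hilum was closed for 45 min under anesthesia and ventilation and the blood flow was then restored, for a time that the sources do not state. The sham group had the same opening of the chest without clamping, and the labels call it control. A part of the dissected lung tissue was used, so cells of the airways, vessels and blood entered each library together. The sources do not state which lung or lobe it came from.

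miR-223 is transcribed from the X chromosome in cells of the myeloid lineage, and neutrophils and monocytes are its richest sources. In mouse and human cells it restrains the growth of granulocyte progenitors through Mef2c and limits the inflammasome sensor Nlrp3. miR-142 is expressed throughout the hematopoietic system, in myeloid as well as lymphoid cells, and both of its arms are loaded into Argonaute and repress targets. In a lung both miRNAs come largely from resident and recruited leukocytes. In bulk tissue, fewer cells of a type and less of the miRNA per cell cannot be told apart.

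The mature sequences are shown because the seed (bases 2 to 8, in capitals), the stretch that pairs with target mRNAs, differs in each of the 4. They are written 5′ to 3′ as RefSeq gives them on build GRCr8.
miR-223-3p: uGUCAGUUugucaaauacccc
miR-223-5p: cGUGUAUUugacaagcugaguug
miR-142-3p: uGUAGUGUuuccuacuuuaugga
miR-142-5p: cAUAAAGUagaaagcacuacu

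The rat Mir223 gene lies at chrX:65151383-65151492 and Mir142 at chr10:73055104-73055190, both on the plus strand of GRCr8. The hairpin of Mir223 is 110 nt long, with the 5p arm at its positions 26 to 48 and the 3p arm at 68 to 88. That of Mir142 is 87 nt long, with the 5p arm at 16 to 36 and the 3p arm at 52 to 74. In the RefSeq table, 0 other mature rat names shared the seed of any member. The nearest other mature sequence was 7 edits away for miR-142-5p (miR-291a-5p), 8 for miR-142-3p (miR-190a-5p), and 9 each for miR-223-3p (miR-145-5p) and miR-223-5p (miR-122-5p). No other listed name had counts within 5% or 2 reads of a member in every library, so that a shared set of reads was not seen in the table. Reads that begin a base earlier or later than the annotated arm, which are known for miR-142, are not separated in the deposited counts.

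The IR libraries held 3775663 to 11248166 miRNA reads and the sham libraries 7459979 to 10718899. Levels are given as normalized CPM (CPM after TMM scaling, where CPM is a count scaled to a library's total) and TMM is a factor that corrects for a few very abundant miRNAs taking up a library. Such a correction bears on sham replicate 3, in which the abundant miR-21-5p took 24.2% of the reads, against 9.66% to 13.5% in the other 5 libraries. The lung origin was looked at through marker miRNAs. The endothelial miR-126 list summed to 83221 to 105494 normalized CPM in IR and 88128 to 111283 in sham, and the epithelial miR-200 list to 19075 to 19618 in IR and 13192 to 16188 in sham. The liver list (miR-122) stood at no more than 9.51 and 6.61 normalized CPM in IR and sham. Of the cardiac miRNAs, miR-208a-3p and miR-208b-3p had at most 0.285 normalized CPM, while miR-499-5p had 87.5 to 124 in IR and 94.0 to 130 in sham. The brain list (miR-124 and miR-9a) summed to 32.4 to 144 normalized CPM in IR and 27.8 to 52.6 in sham. Its highest value, in IR replicate 2, came almost wholly from miR-9a-5p, at 143 there against 26.6 to 50.1 in the other libraries. IR and sham were compared with edgeR's quasi-likelihood test on the 418 miRNAs that had enough reads, and a Benjamini-Hochberg adjusted p under 0.05 was called. All 4 members had enough reads.

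All 4 members, the arms of 2 hairpins, had lower mean levels in IR than in sham lungs, and 0 of the 4 passed the test after adjustment. Of the 418 tested miRNAs 10.5% passed, 2.63% as lower and 7.89% as higher in IR. At an unadjusted p under 0.05 both arms of miR-142 passed and neither arm of miR-223 did, against 26.3% of the tested miRNAs. The fitted log2 fold changes of the members lay between -0.78 and -0.61, with standard errors of 0.20 to 0.63. Over all tested miRNAs the median was -0.01, and 51.2% of the tested miRNAs were below 0. The spread among rats was larger for both arms of miR-223 than for those of miR-142.

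miR-142-3p had 187, 234 and 175 normalized CPM in IR replicates 1 to 3, against 269, 286 and 395 in sham replicates 1 to 3. Every IR library lay below every sham library, a separation that 16.7% of the tested miRNAs showed in this direction. The means were 199 ± 31.2 in IR and 317 ± 68.3 in sham (SD, n = 3 each). The log2 fold change was -0.67 (SE 0.20, 95% interval -1.14 to -0.21), and its adjusted p in edgeR was 0.0731. DESeq2 placed the same miRNA past the threshold at a log2 fold change of -0.69 (adjusted p = 0.0219 from DESeq2), as it did 13.7% of the 505 miRNAs it adjusted. The call thus depended on the method, and the size did not. Without sham replicate 3, which had the highest level, the log2 fold change was -0.49 (adjusted p = 0.191 from edgeR).

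miR-142-5p, the more abundant arm, had 917, 763 and 1122 normalized CPM in IR, against 984, 1708 and 1588 in sham. Sham replicates 2 and 3 lay above all IR libraries, and sham replicate 1 fell within the IR range. Means were 934 ± 180 in IR and 1427 ± 388 in sham (SD, n = 3 each), and the log2 fold change was -0.61 (SE 0.23, 95% interval -1.15 to -0.07, adjusted p = 0.140 from edgeR). Without sham replicate 1 it was -0.84 (adjusted p = 0.0318 from edgeR) and without sham replicate 2 it was -0.42 (adjusted p = 0.262), so that the side of the threshold rested on single libraries.

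miR-223-3p, the main arm of the myeloid hairpin, had 162, 477 and 246 normalized CPM in IR, against 425, 316 and 780 in sham. IR replicate 2 lay above 2 of the 3 sham libraries, and the groups overlapped. The means were 295 ± 163 in IR and 507 ± 243 in sham (SD, n = 3 each). The log2 fold change of -0.78 had a standard error (SE) of 0.44 and a 95% interval of -1.80 to 0.23 (adjusted p = 0.294 from edgeR). The interval holds both no difference and a level more than 3 times lower in IR. The value depended on 1 library at a time, at -1.32 without IR replicate 2 and -0.34 without sham replicate 3.

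miR-223-5p, the minor arm, had 48.2, 170 and 67.7 normalized CPM in IR, against 134, 55.2 and 283 in sham. The 2 highest libraries were sham replicate 3 and IR replicate 2, 1 from each group, and the groups overlapped over most of their range. The means were 95.4 ± 65.7 in IR and 157 ± 115 in sham (SD, n = 3 each). The log2 fold change was -0.73 (SE 0.63, 95% interval -2.18 to 0.72, adjusted p = 0.493 from edgeR). It was -1.44 without IR replicate 2 and -0.01 without sham replicate 3. The smallest count behind any member was 319 reads, for this arm in IR replicate 1, where the 95% exact interval of its TPM (the same scaling to the library's total, before TMM) was 45.2 to 56.5. Counting error was therefore small beside the spread among libraries, and the interval covers counting error only.

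**Figure D1:**
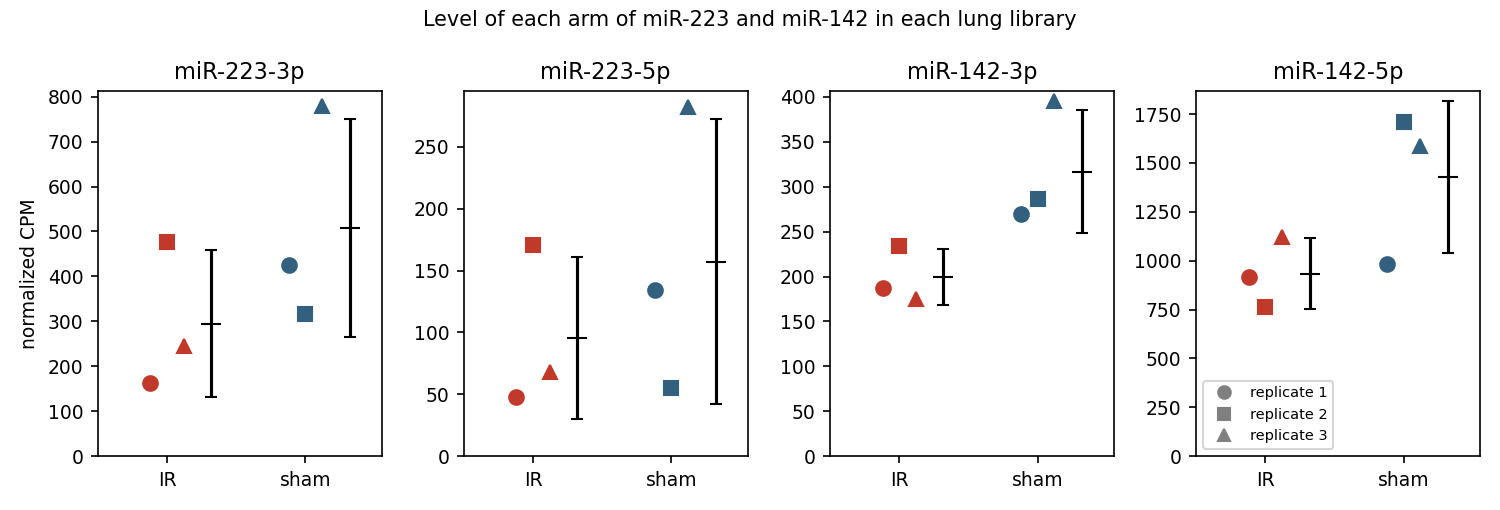
Normalized CPM (vertical axis, from 0, a different scale in each panel) of the 4 miRNAs in the IR and sham libraries, 1 point per library with the symbol giving the replicate number. Black bars are the mean ± SD of 3 libraries. The 3 IR points of miR-142-3p, 175 to 234, lie below its 3 sham points, 269 to 395, and the groups overlap in the other panels.

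All 15 alternative fits of each member, made with other scalings, filters, tools or 1 library left out, gave a log2 fold change below 0. For miR-142-3p the 9 fits on all libraries ranged from -0.69 to -0.62, and 4 of them passed an adjusted p of 0.05. For miR-142-5p they ranged from -0.62 to -0.55, for miR-223-3p from -0.86 to -0.73 and for miR-223-5p from -0.74 to -0.60, and 0 passed for these miRNAs. The choice of libraries moved the values more than the choice of method did, for miR-142 as well as for miR-223. With 1 library left out they ranged from -0.81 to -0.49 for miR-142-3p and from -0.84 to -0.42 for miR-142-5p. For miR-223-3p they then ranged from -1.32 to -0.34 and for miR-223-5p from -1.44 to -0.01.

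**Figure D2:**
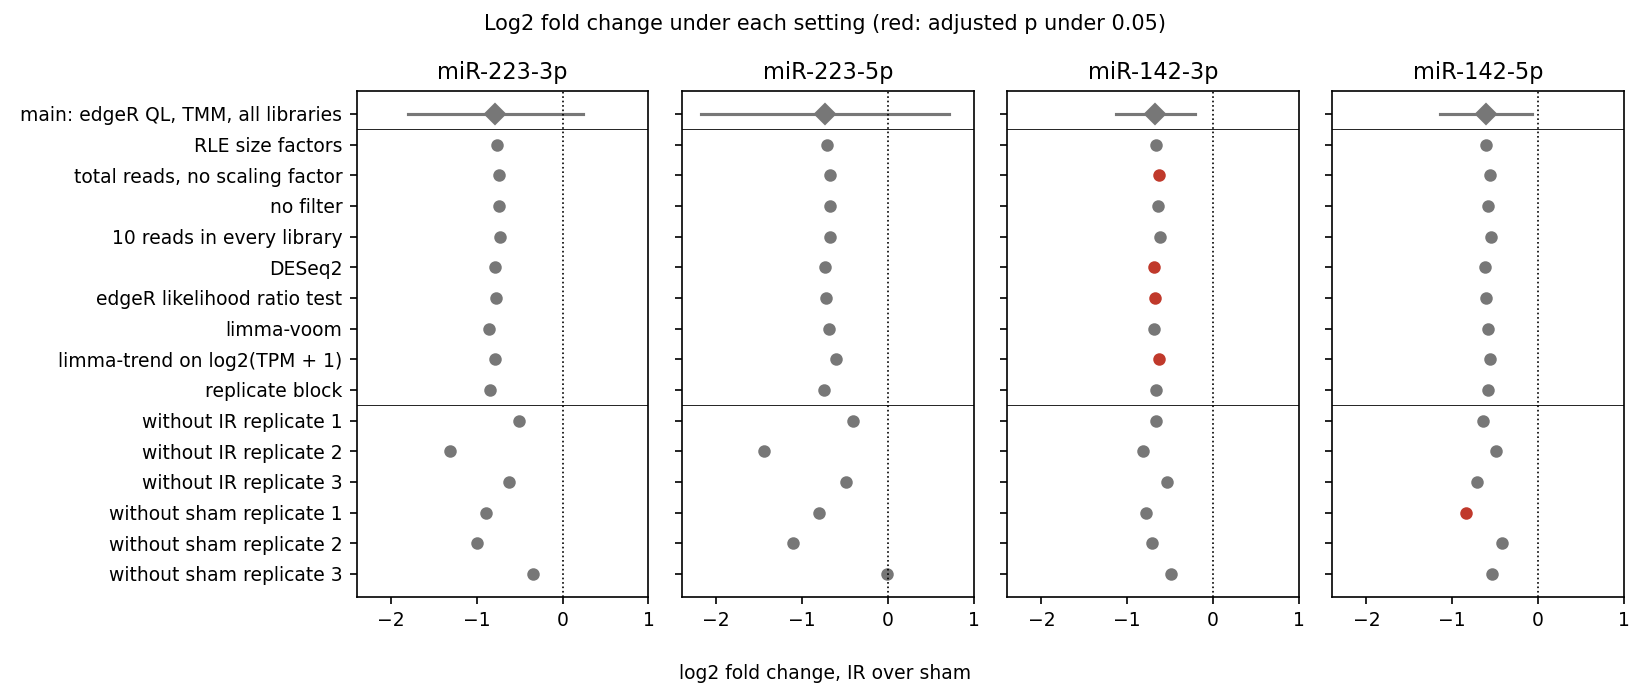
Log2 fold change of IR over sham (horizontal axis) for each miRNA under the main fit (diamond, with its 95% interval), 9 alternatives on all libraries and 6 fits with 1 library left out. Red marks an adjusted p under 0.05, which was reached in 4 settings for miR-142-3p and 1 for miR-142-5p; the points of miR-223-5p run from -1.44 to -0.01.

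miR-223 varied among rats of the same group more than nearly all miRNAs above a minimum level. Among the 203 tested miRNAs with a mean of at least 50 normalized CPM, many of them far more abundant, the median within-group SD was 0.22 on the log2(normalized CPM + 1) scale. The SD of miR-223-5p was 1.06, with 1 of the 203 above it (miR-541-5p), and that of miR-223-3p was 0.73, with 6 above it. The SD of miR-142-5p was 0.36 and that of miR-142-3p 0.26, with 35 and 79 of the 203 above them. In the IR group alone miR-223-5p and miR-223-3p ranked 4 and 6 by SD, and in the sham group alone 2 and 13. These ranks come from 3 libraries per group and are a description.

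Both arms of miR-223 were high and low in nearly the same libraries. Over the 6 libraries the levels of miR-223-3p and miR-223-5p had a Pearson's r of 0.94 (exact permutation p = 0.00694, adjusted 0.0417 over 6 relations among the members) and a Spearman's rho of 0.94 (exact permutation p = 0.0167, adjusted 0.1). Without IR replicate 1 and sham replicate 3, the libraries farthest from the median, r was 0.87. After the group means were taken away r was 0.96, so that the relation held among rats of the same group. Both arms come from 1 precursor and were read in the same libraries, so they are not independent measures. A relation between them was likely beforehand, and its p values say little beyond that.

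Whether the hairpins differed in this was not tested, but the arms of miR-142 followed each other less closely. Their r was 0.61 (exact permutation p = 0.2, adjusted 0.3) and rho 0.54 (exact permutation p = 0.297, adjusted 0.533), with an r of 0.61 without IR replicate 3 and sham replicate 3. After the group means were taken away r was 0.05. Between the hairpins, miR-223-3p and miR-142-3p had an r of 0.85 (exact permutation p = 0.0403, adjusted 0.121) and a rho of 0.71 (exact permutation p = 0.136, adjusted 0.408), and r was 0.55 without IR replicate 1 and sham replicate 3. miR-223-3p and miR-142-5p had an r of 0.28 (exact permutation p = 0.572, adjusted 0.687) and a rho of 0.09 (exact permutation p = 0.919, adjusted 1.0), and r was -0.62 without the same 2 libraries.

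**Figure D3:**
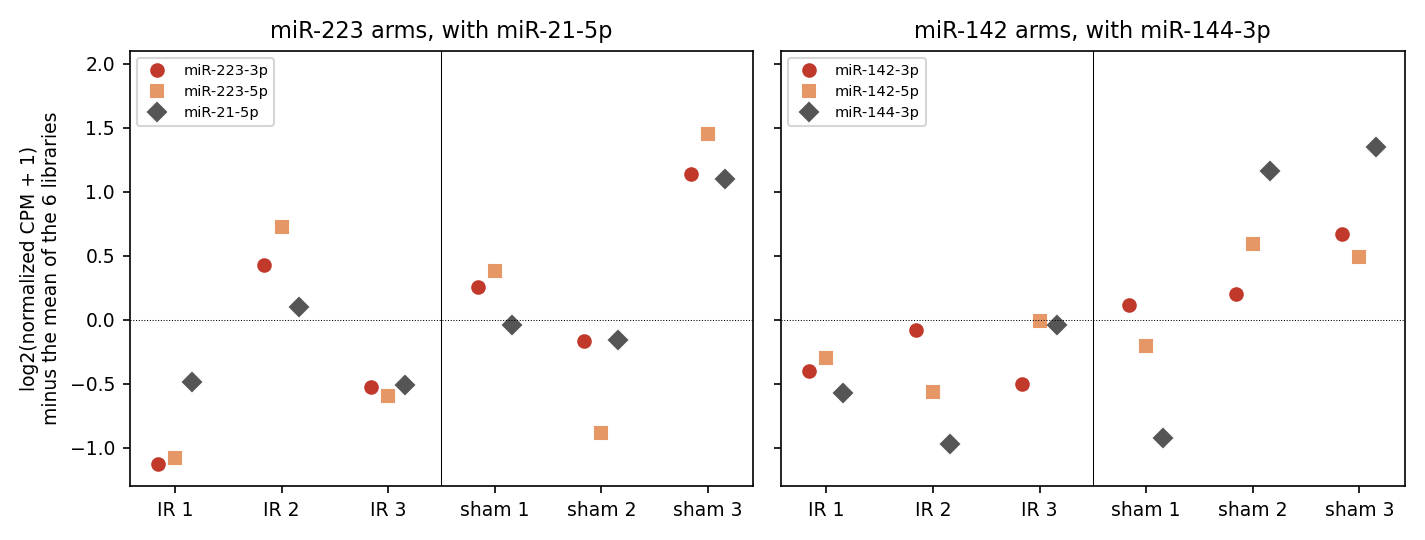
Log2(normalized CPM + 1) of each miRNA minus its own mean over the 6 libraries (vertical axis), by library, IR at the left and sham at the right. Both miR-223 arms and miR-21-5p are highest in sham replicate 3, at 1.13, 1.45 and 1.10; miR-142-5p and miR-144-3p are lowest in IR replicate 2, at -0.57 and -0.97.

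Other miRNAs linked to inflammation or to blood shared part of this order of libraries. miR-21-5p, induced in inflamed tissue and abundant in macrophages, had 93152, 139663 and 91573 normalized CPM in IR and 126465, 116762 and 279460 in sham, and sham replicate 3 and IR replicate 2 were again the highest. The log2 fold change of miR-21-5p was -0.69 (adjusted p = 0.256 from edgeR). The other arm, miR-21-3p, went the other way, at 1.34 (adjusted p = 0.139 from edgeR). It had far fewer reads, with 24.3, 4.85 and 14.7 normalized CPM in IR and 5.17, 4.61 and 7.84 in sham, and did not share this order. miR-144-3p, which is made with miR-451 in erythroid cells, had 62.0, 46.8 and 89.8 in IR and 48.4, 209 and 237 in sham, and was low in sham replicate 1 as miR-142-5p was. The part of miR-21 abundance or of red cells in the levels of miR-223 and miR-142 was not tested. miR-21-5p and miR-144-3p were set beside the members after their values were seen.

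Of the miR-223 reads 73.7% to 78.4% came from the 3p arm in IR libraries and 73.4% to 85.1% in sham libraries. Of the miR-142 reads 13.5% to 23.5% came from the 3p arm in IR libraries and 14.4% to 21.5% in sham libraries, so that the 5p arm was the major one in all 6. The widest 95% exact interval of a 3p share, for miR-223 in IR replicate 1, was 74.8% to 79.3%. Differences between libraries of 1 group exceeded such intervals, with 85.1% in sham replicate 2 (84.0% to 86.2%) and 73.4% in sham replicate 3 (72.5% to 74.3%).

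For each miR-142-3p read there were 4.89, 3.26 and 6.41 miR-142-5p reads in IR and 3.65, 5.97 and 4.02 in sham. The log2 ratio was 2.22 ± 0.49 in IR and 2.15 ± 0.38 in sham (SD, n = 3 each), a difference of 0.07 (exact permutation test, two-sided, p = 0.9, adjusted 1.0 over 5 ratios). The smallest ratio was in the library with the fewest reads, IR replicate 2 with 3775663, and the largest in that with the most, IR replicate 3 with 11248166, and the part of depth in the ratio was not tested. For each miR-223-3p read there were 0.297, 0.357 and 0.276 miR-223-5p reads in IR and 0.316, 0.175 and 0.362 in sham. The log2 ratio was -1.70 ± 0.19 in IR and -1.88 ± 0.56 in sham (SD, n = 3 each), a difference of 0.18 (exact permutation test, two-sided, p = 0.9, adjusted 1.0). Sham replicate 2 alone lay apart from the other libraries, at -2.52.

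The ratio of the myeloid to the general leukocyte miRNA does not depend on the scaling between libraries. There were 0.865, 2.04 and 1.40 miR-223-3p reads for each miR-142-3p read in IR, against 1.58, 1.10 and 1.97 in sham. The log2 ratio was 0.43 ± 0.62 in IR and 0.59 ± 0.42 in sham (SD, n = 3 each), a difference of -0.16 (exact permutation test, two-sided, p = 0.8, adjusted 1.0). The IR libraries spanned the whole range of the sham libraries. With 3 against 3 libraries an exact permutation test cannot go below p = 0.1, so that an unequal change could not have been called for any of the 5 ratios.

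Against miR-150-5p, a miRNA of mature lymphocytes, miR-223-3p had 0.173, 0.687 and 0.262 reads for each read in IR and 0.308, 0.213 and 0.519 in sham. The log2 ratio differed by -0.04 between IR and sham (exact permutation test, two-sided, p = 1.0, adjusted 1.0). miR-142-3p had 0.201, 0.337 and 0.187 reads per miR-150-5p read in IR and 0.195, 0.193 and 0.263 in sham, a log2 difference of 0.12 (exact permutation test, two-sided, p = 0.8, adjusted 1.0). Between 4 of the 6 libraries the last ratio differed by less than 0.02 reads per read, and IR replicate 2 had the highest value of both.

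**Figure D4:**
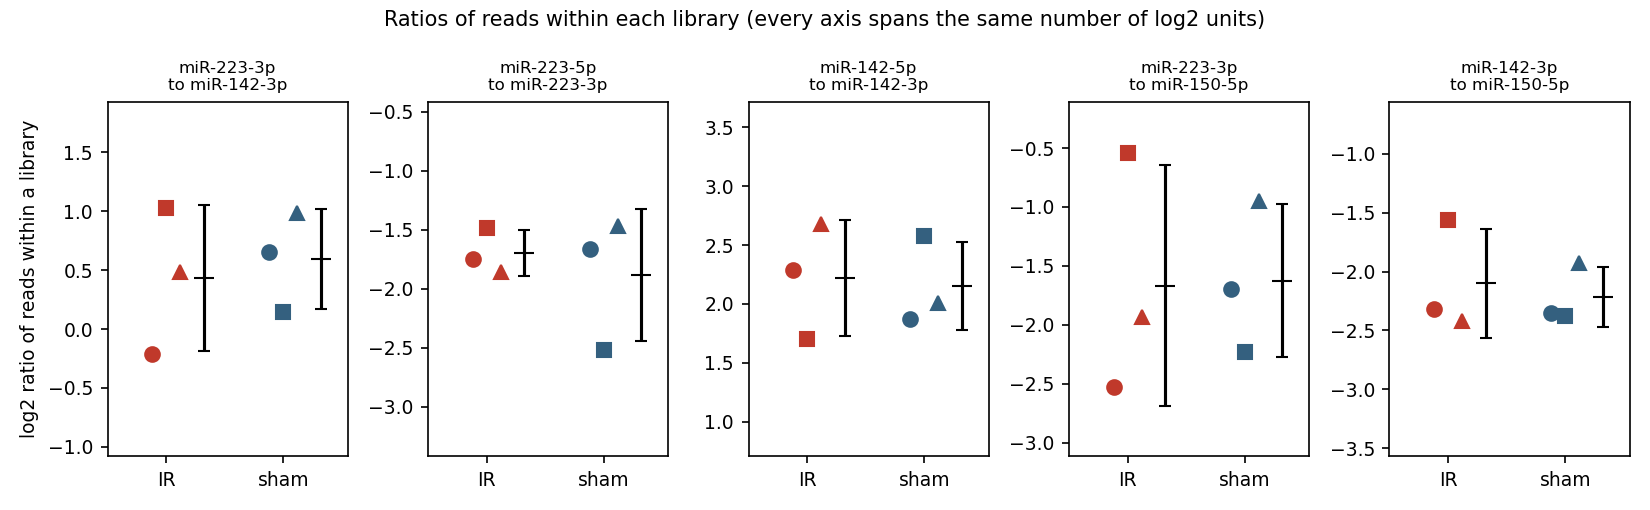
Log2 ratio of reads of 2 miRNAs within each library (vertical axis) for 5 pairs, IR at the left and sham at the right of each panel, 1 point per library and black bars for the mean ± SD of 3 libraries. The groups overlap in all panels, and IR replicate 2 (square) is the highest IR point of miR-223-3p to miR-142-3p, at 1.02, and the lowest of miR-142-5p to miR-142-3p, at 1.70.

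By abundance miR-142-5p stood at rank 60 of the 693 listed miRNAs, miR-223-3p at 107, miR-142-3p at 125 and miR-223-5p at 148, by the mean over all libraries. miR-142-5p exceeded miR-223-3p in 6 of 6 libraries, by 1.60 to 5.66 times in reads. miR-223-3p exceeded miR-142-3p in 5 of 6 libraries, at 0.865 to 2.04 times, and whether their levels differ was not tested. miR-142-3p exceeded miR-223-5p in 6 of 6 libraries, by 1.37 to 5.19 times. Next above and below in level stood miR-218a-5p and miR-218b for miR-142-5p, miR-203a-3p and miR-185-5p for miR-223-3p, miR-3559-5p and miR-34a-5p for miR-142-3p, and miR-151-5p and miR-3590-5p for miR-223-5p. Adapter ligation favours some small RNAs, so read levels of different miRNAs are not molar amounts.

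The miRNAs whose levels over the 6 libraries were most like those of miR-223-3p were miR-466c-5p (Pearson's r 0.97 on the log2 scale), miR-425-5p (0.96), miR-20a-5p (0.92), miR-16-3p (0.92) and miR-93-5p (0.92). For miR-142-3p they were miR-339-5p (0.995), miR-363-3p (0.98), miR-130b-5p (0.97), miR-20b-5p (0.97) and miR-191a-5p (0.96). Each 5 were the highest among the tested miRNAs other than the members, over 6 libraries, and are a description. Some of them had low levels: miR-466c-5p had 1.81 to 20.4 normalized CPM and miR-16-3p 0.755 to 2.69. In the list for miR-142-3p, miR-130b-5p had 3.02 to 10.3 normalized CPM and miR-20b-5p 3.45 to 20.5. miR-339-5p had 243, 285 and 242 normalized CPM in IR and 330, 348 and 438 in sham, an order of libraries close to that of miR-142-3p.

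Other miRNAs of leukocytes and blood were read from lists. Of the lymphocyte list (miR-150, miR-342 and miR-155), 1 of 5 tested miRNAs was lower in IR and 0 were higher, with a median log2 fold change of -0.20, against 2.63% lower and 7.89% higher of all tested miRNAs and a median of -0.01. miR-150-5p was the one that fell, to 934, 694 and 936 normalized CPM in IR, against 1378, 1483 and 1502 in sham (log2 fold change -0.77, SE 0.15, adjusted p = 0.0229 in edgeR). The call was lost without IR replicate 3 (adjusted p = 0.0777 in edgeR), without sham replicate 3 (0.0592) and with a replicate block (0.0918). miR-342-3p and miR-155-5p, which marks activated lymphocytes and macrophages, were at -0.13 and 0.24 without passing.

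Of the list of macrophage and inflammation miRNAs, 1 of 11 tested was lower in IR and 0 were higher, with a median log2 fold change of -0.19. A share of 1 in 11 is close to the 10.5% called in either direction among all tested miRNAs. By direction, 2.63% of all tested miRNAs were called as lower and 7.89% as higher. miR-146a-5p, which NF-κB induces and which in turn restrains that pathway, fell to 825, 868 and 797 normalized CPM in IR, against 1853, 1128 and 1495 in sham (log2 fold change -0.85, SE 0.18, adjusted p = 0.0247 in edgeR). The call was lost without any 1 of the IR libraries (adjusted p = 0.0642, 0.0604 and 0.138 in edgeR without replicates 1, 2 and 3), without sham replicate 3 (0.0693) and with a replicate block (0.1001). miR-146b-5p was at 0.29 without passing. miR-511, which lies in an intron of the macrophage mannose receptor gene, had at most 2.95 normalized CPM in any library, and miR-511-3p was at 0.04 without passing.

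Of the erythroid list 0 of 4 tested miRNAs passed edgeR's test, against 10.5% of all tested miRNAs. An unadjusted p under 0.05 in edgeR was reached by 2 of the 4, against 26.3% of all tested miRNAs. All 4 had a log2 fold change below 0 (median -0.93), against 51.2% of all tested miRNAs, and both arms of miR-144 are among the 4. miR-451-5p, processed without Dicer and abundant in red cells, was at -0.20, miR-486 at -1.09 and miR-144-3p at -1.31. The summed erythroid level was 1493 to 2155 normalized CPM in IR and 1234 to 4049 in sham, with the highest value in sham replicate 3. The library that was highest for 3 of the 4 members was thus also the highest in erythroid miRNAs, and the part of blood content in the members' levels was not tested. A median below 0 was not particular to leukocyte and blood lists. Of the smooth muscle and mesenchyme list 1 of 7 tested miRNAs was lower in IR and 0 were higher. In that list 6 of the 7 had a log2 fold change below 0 (median -0.30). Of the epithelial list 0 of 9 passed and 1 was below 0 (median 0.33), and of the endothelial list 0 of 3 passed (median -0.01). Lists and members were chosen with earlier results of these data known.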

How the data were processed

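Small RNA libraries from rat lung (3 IR, 3 sham) were analysed from the authors' table. The authors deposited unnormalized counts of reads for each miRNA, and TPM values, which here are each count scaled to the sum of that library's column, without any term for length. The submitters' processing notes name Bowtie. Not given in the sources used here: build, annotation, counting tool and handling of multiply matching reads. Of the 693 names 63 are predicted miRNAs. The labels give groups and replicate numbers, and the paper calls a group's samples biological replicates.

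Counts were filtered with filterByExpr (minimum count 10, minimum total 15), scaled by TMM (factors 0.867 to 1.06) and tested with edgeR 4.0.16 (quasi-likelihood, Benjamini-Hochberg over 418 miRNAs) in R 4.3.3. DESeq2 1.42.0 and limma 3.58.1 served as alternatives, with other scalings and filters, a replicate block and each library left out. Standard errors are the log2 fold change over the square root of F. Ratios used counts + 0.5, and their permutation tests used all 20 divisions of the libraries. The permutation tests of the relations among members used all orderings of the 6 libraries. The code was tested on simulated counts. Likeness used log2(normalized CPM + 1). Of 630 rat names 570 matched a RefSeq mature sequence. Named miRNAs were the members, the 5 most alike for each 3p arm, neighbours in level and up to 3 abundant miRNAs per blood or leukocyte list. Those named outside this rule were chosen after their values were seen. Members and lists were chosen with earlier results of these data known. Other assays of the study were not analysed here.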

Additional observations from a re-analysis of the deposited data

How the results depend on the processing

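The threshold was crossed for miR-142-3p with total reads in place of TMM (log2 fold change -0.63, adjusted p = 0.0444 from edgeR), DESeq2 (-0.69, 0.0219), edgeR's likelihood ratio test (-0.67, 0.0428) and limma-trend on log2(TPM + 1) (-0.63, 0.0404). The adjusted p of miR-142-3p ranged from 0.0219 to 0.210 over the 9 alternatives on all libraries. For miR-142-5p the fits with 1 library left out ranged from -0.84 to -0.42, and the one without sham replicate 1 passed. The cause was not tested. With 1 library left out the sign of all 5 ratio differences depended on the library: they ranged from -0.45 to 0.16 (miR-223-3p to miR-142-3p), -0.13 to 0.39 (miR-223-5p to miR-223-3p), -0.15 to 0.33 (miR-142-5p to miR-142-3p), -0.60 to 0.39 (miR-223-3p to miR-150-5p) and -0.15 to 0.28 (miR-142-3p to miR-150-5p). Each of these moves was smaller than the SD pooled over both groups, though not always than that of 1 group. No scaling moved the median log2 fold change of all miRNAs by over 0.1.

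The number of called miRNAs, 44 with edgeR, was 26 with 10 reads asked for in every library, which tests fewer miRNAs, and 69 with DESeq2. With 1 library left out it ranged from 2, without IR replicate 3, to 57, without sham replicate 2. The numbers of the libraries pair nothing known: same-numbered IR and sham libraries deviated from their group means with r of -0.23, -0.39 and -0.18. With a replicate block edgeR called 0 miRNAs (84 at an unadjusted p under 0.05), and the members had log2 fold changes of -0.85 (miR-223-3p), -0.74 (miR-223-5p), -0.66 (miR-142-3p) and -0.59 (miR-142-5p).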

Other observations

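The 5p arms were matched with other miRNAs in the same way, a comparison chosen after seeing the data. miR-223-5p was most like miR-93-5p (Pearson's r 0.97 over 6 libraries), miR-181d-5p (0.93), miR-466c-5p (0.92), miR-542-3p (0.91) and miR-148b-3p (0.91), so that 2 of the 5 were also among those most like miR-223-3p. miR-142-5p was most like miR-339-3p (0.98), miR-144-3p (0.96), miR-872-3p (0.95), miR-32-5p (0.95) and miR-193b-3p (0.93). The 5p arm of miR-142 was thus most like the 3p arm of miR-339, and the 3p arm of miR-142 most like the 5p arm of miR-339. miR-339-3p had a log2 fold change of -0.40 (adjusted p = 0.325 from edgeR).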
